A study of Mus musculus with 167 samples.

Results

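Glutathione S-transferases were followed as a gene family in asbestos-induced tumours of the mouse. The members were all genes whose symbol begins with Gsta, Gstm, Gstp, Gstt, Gsto, Gstz, Gstk or Mgst followed by a digit, together with Gstcd, and no expression value entered this choice. The rule found 26 genes among the 36118 of the deposited count table: 4 of the alpha class, 7 of mu, 3 of pi, 4 of theta, 2 of omega, 1 of zeta, 1 of kappa, 3 microsomal enzymes and Gstcd.

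The RNA came from whole tumours of F1 mice, bred by mating males of Collaborative Cross lines with MexTAg females. These lines are inbred mosaics of several founder strains, so the crosses, called strains here after the male's line, differ in their inherited genome. In the MexTAg parent the mesothelin promoter drives the SV40 large T antigen, an oncogene, in mesothelial cells, and all mice share this transgene. Each mouse was injected into the peritoneal cavity with 2 doses of 3 mg of crocidolite asbestos, with no further treatment, and the sources used here give neither its age nor its sex. Labels place each mouse below or above median survival. Of 119 mice in 35 strains, 3 whose libraries carry liver RNA (LAX-E2, TAS-I1 and TOFU-C3) were left out, which left 35 mice below and 81 above median survival. The tumours of each mouse were pooled by adding their counts, because strain and survival class belong to the mouse.

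The 167 libraries held 11138491 to 35399287 estimated counts each, with a median of 22539831. Levels are in CPM, counts scaled to the size of the library. Over 300 strain-dependent genes, 5 libraries stood apart from the strain their label names. Tumour 2 of mouse Rogan-C3 correlated at 0.84 with the mean of CC046, against 0.03 with its own strain; the other 4 were tumour 2 of LOX-D1, of LAT-F5 and of LAT-D3, and tumour 1 of MEE-A3. A further 18 libraries had over 1% of their counts in a marker list of another tissue, skeletal muscle in 9 of them and hepatocytes in 5. The mesothelial markers were present in both classes, with a median sum of 313 CPM in mice below and 435 CPM in mice above median survival, and 1 of the 18 markers had a median under 0.1 CPM. In bulk tumours, fewer cells of a type and less RNA per cell cannot be told apart.

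Glutathione S-transferases join the tripeptide glutathione to reactive, electrophilic compounds, which makes these easier to export, and several also reduce lipid peroxides. The soluble enzymes pair up as dimers of related subunits whose genes lie in clusters, while the microsomal enzymes are a separate family of membrane proteins. Many members are targets of Nrf2, the factor that binds antioxidant response elements when cells meet oxidants or electrophiles. Crocidolite fibres carry iron and are known to generate reactive oxygen species.

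Members of a cluster resemble each other in sequence, which bears on how reads were shared out among them. Gstp1 (ENSMUSG00000060803, chr19:4035407-4037985, minus strand, GRCm38) and Gstp2 (ENSMUSG00000038155, chr19:4040285-4046023, minus strand) are neighbours whose coding sequences are both 630 bases long and differ at 12 bases, an identity of 98.1%. The longest stretch in which they are identical has 300 bases. The first 60 coding bases of each are shown because they hold 6 of the 12 differences, which are in capitals; they are read from the GENCODE M21 transcripts and span an intron (chr19:4037374-4037863 and chr19:4041668-4042165).
Gstp1: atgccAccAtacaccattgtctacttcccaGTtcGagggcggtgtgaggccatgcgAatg
Gstp2: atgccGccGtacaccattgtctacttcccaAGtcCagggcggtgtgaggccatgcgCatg
Of all 31-base words in the transcripts of a gene, 60.3% were shared with another gene for Gstp2 and 38.5% for Gstp1. This share was 92.9% for Gsta1, 60.7% for Gsta2, 37.7% for Gstm3, 28.8% for Gstm1 and 14.05% for Gstt3. It was 0% for Gsta4, Gsto1, Gsto2, Gstt4 and Mgst1. The split of counts is therefore uncertain among Gstp1 and Gstp2, Gsta1 and Gsta2, and the mu genes. Gstm5 also overlaps the antisense gene 4933431E20Rik, with 11.1% of its words shared, and the sources used here do not say whether counting used strand.

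A core of the antioxidant response element, TGACNNNGC, was searched on both strands of RefSeq promoter windows of 300 bases (GRCm38.p6), from 250 bases before to 50 bases after the start of a transcript. Of the 24 members with a window, 4 held it, against 13.99% of 27025 genes. Other forms of the element were not searched, so a window without a match may still hold one. The matches are shown with the motif in capitals, for comparison with the Nrf2 target scores below, and the match in Mgst1 reads on the opposite strand.
Gsta3 (chr1:21240454-21240482, plus strand, motif starting 121 bases before the start): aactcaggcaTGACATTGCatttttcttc
Gstm5 (chr3:107895802-107895830, plus strand, 42 bases before): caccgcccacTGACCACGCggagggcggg
Gstm7 (chr3:107931725-107931753, minus strand, 129 bases before): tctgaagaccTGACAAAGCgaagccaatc
Mgst1 (chr6:138140461-138140489, plus strand, 56 bases before): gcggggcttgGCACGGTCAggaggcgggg

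Levels of the members were compared per kilobase of exon, as medians over 116 mice. For this length all annotated exons of a gene were joined, from 908 bases for Gstp3 to 5401 bases for Gstcd. A gene whose expressed transcripts are shorter than that stands too low in the order. Gstp1, which conjugates a wide range of electrophiles and also binds the stress kinase JNK, stood at 63.9 CPM per kb. Gsto1, an omega enzyme that acts as a thioltransferase and reduces dehydroascorbate, stood at 51.7 CPM per kb, and Gstm1, a main mu enzyme, at 36.3 CPM per kb. These 3 genes had the highest level of the family. The membrane enzymes Mgst3 and Mgst1 stood at 17.4 and 12.4 CPM per kb, and Gstm2 and Gstm5 at 14.7 and 10.8 CPM per kb. Gstp2 had 7.17 CPM per kb, Gstcd 5.01, Gstz1 4.87, Gsta4 4.67, Gstt1 3.52, Gstm4 3.405 and Mgst2 2.73 CPM per kb. Below 2 CPM per kb lay Gstk1, Gstt3, Gstt2, Gstm7, Gstp3, Gsta3, Gsto2 and Gstm6, the last at 0.131 CPM per kb.

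At the bottom, Gsta1, Gsta2, Gstm3 and Gstt4 had 3 counts or fewer in 57, 71, 60 and 84 of the 116 mice. Single mice carried much of what there was. LAX-G3 had 160.4 CPM of Gsta1, 54.2% of its sum over all mice, beside 9688 CPM of intestine markers, whose median was 17.002 CPM. CC081-C5 had 34.8 CPM of Gsta2, 38.8% of its sum, beside 4472 CPM of kidney markers, whose median was 17.3 CPM. The part of these tissues in the alpha levels was not tested.

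The highest mouse of 6 members was the same, LOX-F4: Gsta4, Gstm1, Gstm4, Gstp3, Gstt1 and Mgst1 peaked there. LOX-F4 had 498 CPM of Mgst1, against a median of 24.99 CPM over all mice, and 170.2 CPM of Gstt1, against a median of 5.38 CPM. Its summed fibroblast and mesenchymal markers were 5072 CPM, against a median of 35161 CPM, and its mesothelial markers 3012 CPM, against 424 CPM. Among the other lists, its macrophage markers were 7692 CPM, against a median of 2915 CPM, and its kidney markers 244.6 CPM, against 17.3 CPM. Its cell cycle markers were low, at 473 CPM, against a median of 1627 CPM. The part of other cell types in the levels of LOX-F4 was not tested. LAX-G3 was highest for 4 members and CC044-I2 for 3, the theta genes Gstt2, Gstt3 and Gstt4.

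Strain differences were examined in the 25 strains with at least 3 mice. How many members differed depended on the test. By edgeR's quasi-likelihood F-test, 23 of 26 members (88.5%) passed an adjusted p of 0.05, beside 69.4% of 20649 genes tested. The 3 that did not pass were Gstm5, Gsto2 and Mgst2. By limma-voom 13 members (50%) passed, beside 52% of genes, among them Gstm5 and Mgst2. Without Gsta1, Gsta2, Gstm3 and Gstt4, which lay near the detection floor, 19 of 22 members passed by edgeR and 11 by limma-voom. Gstm6, counted among these 22, also had 3 counts or fewer in 26 of the 116 mice. Without the 5 libraries that stood apart, 22 of the 26 members passed by edgeR, beside 69.5% of genes. Strain took a median of 35.6% of the variance of log2 CPM among the members and of 36.6% among all genes. The kidney gene Umod exceeded 2 CPM in every mouse of 8 of the strains. Within these 8 (27 mice), 6 of 25 members passed by edgeR, beside 10.9% of genes. Within the other 17 strains (74 mice), 22 of 26 passed, beside 57.8% of genes. The kidney marker score (mean centred log2 CPM) was at least 0.957 in each mouse of LAX, CC036 and CC058, which stand at an end of the order for some members below. The part of this signal in the strain differences was not tested.

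**Figure D1:**
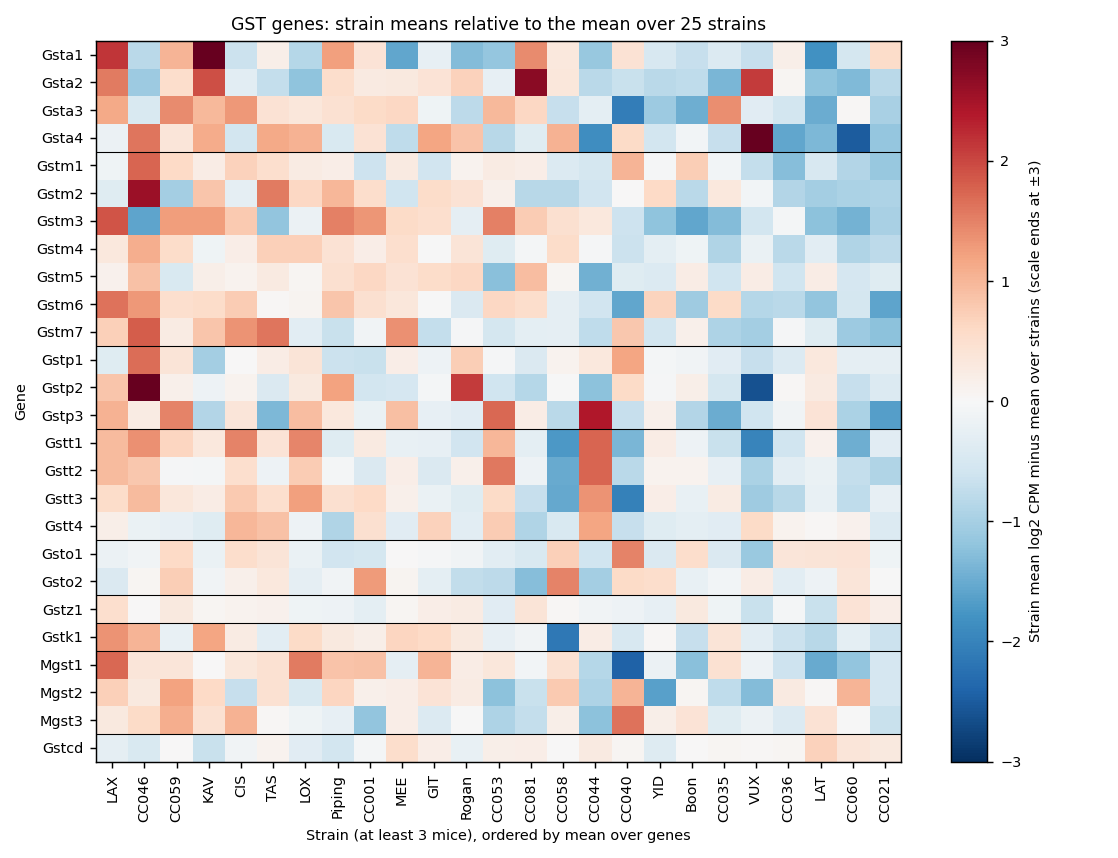
Strain means of log2 CPM for each member (down, grouped by class) in 25 strains (across, ordered by their mean over members), each relative to the gene's mean over strains; red is higher and blue lower. CC046 was highest for 6 members, while VUX was among the 3 lowest strains for 9 members.

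None of the members had a strain step. A step was defined at the largest gap between neighbouring strain means of a gene. This gap had to be at least 0.5 on the log2 scale, with no mouse of the strains above overlapping a mouse of those below. Smaller gaps of the same gene were not examined. Such a step was found in 0 of 26 members and in 0 of 5 sums over clusters, beside 0.494% of genes; without the 5 libraries it was 0 of 26, beside 0.673% of genes. Gaps of that size without the separation of mice were present in 17 of the 26 members, beside 39.3% of genes, and 5 members had a gap of at least 1, beside 11.6% of genes. The median of the largest gap was 0.61 among the members and 0.41 among all genes. In every member, mice on the lower side of the largest gap overlapped mice on the upper side.

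Among the alpha genes, Gsta4 (ENSMUSG00000032348, chr9:78182774-78209349, plus strand), which detoxifies the lipid peroxidation product 4-hydroxynonenal, was highest in VUX. The 4 VUX mice had 63.8, 61.7, 105.3 and 121 CPM, against 1.27, 0.832 and 1.98 CPM in the 3 mice of CC060, the lowest strain. All VUX mice were high and all CC060 mice low, with no overlap between these strains. They were picked as the highest and lowest strain by these same values, so their lack of overlap is not a test of a strain difference. The same limit applies to the highest and lowest strains of the members described below. The share of all genes whose highest and lowest strains do not overlap was not examined. The mean of VUX was 6.398 ± 0.50 log2 CPM (SD, n = 4), that of CC046, the next strain, 4.52 ± 1.07 (n = 3), and that of CC060 0.43 ± 0.59 (n = 3). The gap of 1.88 below VUX was not a step, because LOX-F4, in a strain whose 7 mice ranged from 0.331 to 146.7 CPM, lay above every VUX mouse. Gsta4 differed between strains by edgeR (adjusted p = 0.00031) and by limma-voom (adjusted p = 0.0034). The gap of Gsta1, 2.27 below KAV, rested on mouse KAV-G2 with 78.6 CPM, against 4.58 and 0.453 CPM in the other KAV mice, and KAV-G2 also had 3601 CPM of pancreas markers.

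Gstm1 (ENSMUSG00000058135, chr3:108012255-108017973, minus strand) and Gstm2 led the mu cluster in CC046. Gstm1 had 247, 267 and 107.2 CPM in the 3 CC046 mice, against 10.8, 31.6 and 37.1 CPM in the 3 mice of CC036, the lowest strain. These mice did not overlap. The strain means were 7.58 ± 0.73 log2 CPM in CC046 and 4.55 ± 0.96 log2 CPM in CC036 (SD, n = 3 each). The strains as a whole differed by edgeR (adjusted p = 0.0083) but not by limma-voom (adjusted p = 0.19). Gstm2 had 179, 181 and 82.1 CPM in CC046, a mean of 7.12 ± 0.65 log2 CPM, which was 1.02 above that of TAS, the next strain. TAS mouse J2 had 236 CPM of Gstm2, more than any CC046 mouse. The sum over Gstm1 to Gstm7 was also highest in CC046 and lowest in CC036, and its largest gap was 0.99. Mouse CC046-L3 had 58562 CPM of skeletal muscle markers, against a median of 109.6 CPM over all mice. Without libraries over 1% of another tissue CC046 had fewer than 3 mice and left the comparison. Strain then took 22.9% of the variance of Gstm1, against 31.4% with all libraries, and the largest gap was 0.48 for Gstm2 and 0.39 for the sum, with CC040 and TAS the highest strains. For Gstp1, described next, strain took 50.4% in that setting, and CC040 was highest.

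Gstp1 and Gstp2 of the pi class held the largest shares of variance between strains in the family. Gstp1 had 319, 567 and 176 CPM in the 3 CC046 mice, against 37.8, 59.8 and 51.6 CPM in the 3 KAV mice. CC046 was thus high and KAV low in every mouse, with means of 8.31 ± 0.84 and 5.61 ± 0.34 log2 CPM (SD, n = 3 each). CC040 came second with 107.1, 173, 814 and 180 CPM, so its mice overlapped those of CC046. Strain took 54.7% of the variance of Gstp1, at the 92nd percentile of all genes, and the strain difference had an adjusted p of 1.2e-07 by edgeR and 4.2e-05 by limma-voom. For the sum of Gstp1 to Gstp3, in which the split of reads between the copies does not matter, strain took 55.2%.

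Gstp2, a copy of Gstp1 with weak catalytic activity in mice, varied over a wider range than Gstp1. It had 17.8, 196 and 71.2 CPM in CC046, against 2.60, 11.6, 0.228 and 0.222 CPM in the 4 mice of VUX, the lowest strain. The CC046 mice were all above the VUX mice, and the 2 VUX mice at 0.228 and 0.222 CPM are named VUX2; whether these belong to a separate line was not given. The place of VUX as the lowest strain rests on this pair. The CC046 mean was 5.98 ± 1.73 log2 CPM (SD, n = 3), the Rogan mean 5.05 ± 1.17 (n = 4) and the VUX mean 0.34 ± 2.62 (n = 4). Without tumour 2 of Rogan-C3, which was nearer to CC046, the Rogan mean was 3.90 ± 1.66, and the largest gap then lay below CC046 at 1.79. The lowest of all 116 mice, at 0.201 CPM, was CC044-F2, in a strain whose other mice had 2.10 to 20.6 CPM. Strain took 49.4% of the variance of Gstp2, with an adjusted p of 2.7e-06 by edgeR and 1.2e-05 by limma-voom. Gstp3 differed too, by edgeR (adjusted p = 6.9e-07) and by limma-voom (adjusted p = 0.0085), and was highest in CC044.

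**Figure D2:**
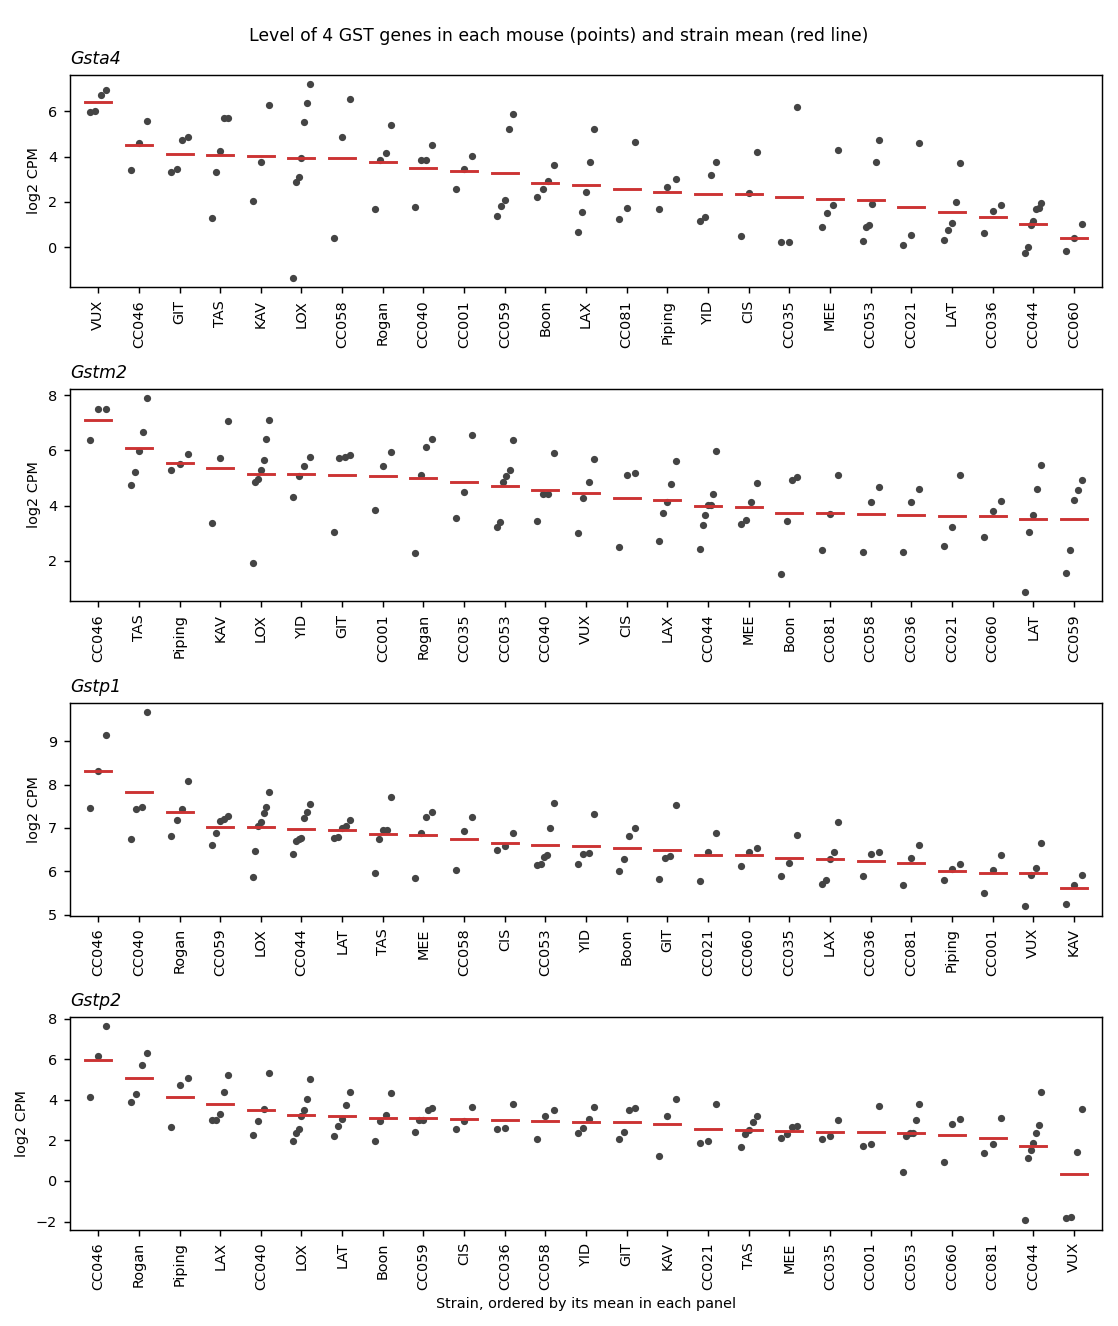
Log2 CPM of Gsta4, Gstm2, Gstp1 and Gstp2 (one panel each) in every mouse (points) of 25 strains, with the strain mean as a red line and strains ordered by mean. VUX stands highest for Gsta4 and lowest for Gstp2, CC046 highest for the other 3 genes, and mice of neighbouring strains overlap in all panels.

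The theta genes Gstt1, Gstt2 and Gstt3, whose enzymes handle halogenated alkanes and similar small substrates, were each highest in CC044. Gstt3 (ENSMUSG00000001665, chr10:75774115-75781414, minus strand) ranged from 2.32 to 81.99 CPM with a median of 12.9 CPM in the 7 CC044 mice, against 1.40, 2.95, 1.49 and 0.471 CPM in the 4 mice of CC040, the lowest strain. The strains overlapped, since the lowest CC044 mouse lay below the highest CC040 mouse. Their means were 3.82 ± 1.57 (SD, n = 7) and 0.47 ± 1.03 (n = 4) log2 CPM, and the strain difference passed by edgeR (adjusted p = 0.017) and not by limma-voom (adjusted p = 0.085). In CC044, 5 of the 7 mice had a T cell marker score above 2, a level reached by 15 of the 116 mice.

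Gsto1 (ENSMUSG00000025068, chr19:47854970-47864790, plus strand) was highest in CC040. Its 4 mice had 342, 179, 724 and 169 CPM, against 29.2, 21.7, 97.3 and 87.1 CPM in the 4 VUX mice. All CC040 mice were above all VUX mice, and the means were 8.20 ± 0.98 and 5.59 ± 1.09 log2 CPM (SD, n = 4 each). The strain difference was close to the threshold, with an adjusted p of 0.047 by edgeR, 0.061 by edgeR without the 5 libraries and 0.070 by limma-voom. Mouse CC040-E4 had the highest level of both Gsto1 and Gstp1.

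Gstz1, which isomerises maleylacetoacetate in the breakdown of tyrosine, varied least among the members. It had 40.8, 39.7, 29.3, 52.1 and 23.9 CPM in LAX, the highest strain, against 16.2, 20.8, 11.01 and 17.2 CPM in VUX, the lowest. The strains did not overlap, with means of 5.17 ± 0.44 (SD, n = 5) and 3.998 ± 0.38 (n = 4) log2 CPM, and the adjusted p over all strains was 0.027 by edgeR and 0.053 by limma-voom. Gstk1, an enzyme of mitochondria and peroxisomes, stood out at the low end, with 0.695, 0.711 and 0.318 CPM in CC058. The next lowest strain, LAT, had 1.09 to 1.83 CPM, and the gap between their means was 1.32; mouse CC059-B5, at 0.253 CPM, lay below all CC058 mice. Gstk1 passed by edgeR (adjusted p = 0.0051) and not by limma-voom (adjusted p = 0.14).

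Mgst1 (ENSMUSG00000008540, chr6:138140316-138156755, plus strand), a glutathione transferase and peroxidase of the endoplasmic reticulum and outer mitochondrial membrane, was highest in LAX and lowest in CC040. It had 25.1, 157.3, 206, 133 and 41.6 CPM in LAX, against 5.37, 4.54, 7.32 and 2.83 CPM in CC040. Every LAX mouse was above every CC040 mouse, with means of 6.42 ± 1.32 (SD, n = 5) and 2.26 ± 0.57 (n = 4) log2 CPM. Of the high LAX mice, LAX-F2 had 3581 CPM of hepatocyte and 21088 CPM of skeletal muscle markers, and LAX-G3 3992 CPM of hepatocyte and 9688 CPM of intestine markers. Without libraries over 1% of another tissue LOX was highest at 6.50, LAX followed at 6.21, and CC040 was again lowest at 2.31 log2 CPM. CC040 thus had the highest mean of Gsto1 and Mgst3 and the lowest of Mgst1, Gsta3 and Gstt3. The strain difference of Mgst1 passed by edgeR (adjusted p = 0.0086) and not by limma-voom (adjusted p = 0.15). Gstcd, whose product carries a transferase-like C-terminal domain, had 52.8, 34.4, 40.2, 65.02 and 30.1 CPM in LAT, against 19.4, 17.9 and 13.2 CPM in KAV. These strains did not overlap, and Gstcd passed by both edgeR (adjusted p = 0.018) and limma-voom (adjusted p = 0.034).

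Tumours of the same mouse also differed from each other in the family. Over 83 tumours of 35 mice, the SD of log2 CPM among tumours of a mouse ran from 0.38 for Gstcd to 1.58 for Gsta3, with a median of 0.98 over the members and 0.59 over all genes. Among mice of a strain, with the tumours of a mouse pooled, the median SD was 1.22 over the members and 0.79 over all genes. In 25 of 26 members tumours of a mouse varied less than mice of a strain, Gstz1 being the exception. The medians over all genes stood in the same order, and the share of single genes with this order was not examined. The widest contrast was in mouse CC059-E2. Its tumour 2 had 505 CPM of Mgst1, 579 CPM of Gstm1 and 40.2 CPM of Gstp3. Tumours 1 and 3 had 7.26 and 10.7 CPM of Mgst1, 13.5 and 42.5 CPM of Gstm1, and 0.418 and 0.132 CPM of Gstp3. Tumour 2 was thus far above both, and CC059-E2 gave the largest fold between tumours for 12 members. The share of all genes with their largest fold in this mouse was not examined. In tumour 2 the cell cycle score was -2.87, against 0.37 and 0.33 in tumours 1 and 3. Its fibroblast markers summed to 5820 CPM, against 34805 and 32106 CPM. Macrophage markers summed to 6222 CPM in tumour 2, against 401 and 1053 CPM, and reproductive tract markers to 777 CPM, against 2.77 and 1.23 CPM. The part of other cell types in the contrast between these tumours was not tested. Gstcd went the other way, with 10.5 CPM in tumour 2, against 46.6 and 60.99 CPM. In Rogan-C3, tumour 2 had 181 CPM of Gstp2 and 517 CPM of Gstp1, against 3.22 and 90.5 CPM in tumour 1; it is the tumour that stood nearer to CC046.

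The survival classes were compared next, as mice below minus mice above median survival. No member passed: 0 of 22 members tested had an adjusted p under 0.05 by edgeR, beside 1.71% of 17099 genes, and likewise 0 by limma-voom and 0 by DESeq2, which called 0% and 2% of genes. At an unadjusted p under 0.05 by edgeR, 3 of the 22 members lay below it, beside 9.08% of genes. Without the 5 libraries the members called were again 0, beside 1.73% of genes. Gsta1, Gsta2, Gstm3 and Gstt4 did not pass the filter on low counts. The log2 fold changes of the other 19 members ran from -0.25 to 0.29.

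Gsta3, an alpha enzyme that in mice conjugates the epoxide of aflatoxin, had a lowest value of 0.471, a median of 2.64 and a highest of 63.98 CPM in the 35 mice below. In the 81 mice above, these values were 0.199, 2.24 and 73.1 CPM. The ranges of the classes overlapped almost entirely. The difference was 1.09 ± 0.37 (log2 fold change ± SE; edgeR, adjusted p = 0.13, unadjusted p = 0.0035). Without libraries over 1% of another tissue it was 0.44 ± 0.34 (edgeR, adjusted p = 0.78), and 0.66 ± 0.50 in a model with a term for strain (edgeR, adjusted p = 0.58). With the 3 mice of liver RNA kept it was 1.86 (edgeR, adjusted p = 0.042), which made Gsta3 the 1 member called, beside 1.56% of genes. Gsta3 correlated with the hepatocyte marker score over the mice (r = 0.59, rho = 0.59, permutation p = 1e-05), and 0.60 without the 2 farthest mice. The median sum of these markers was 351 CPM below and 332 CPM above median survival. The part of liver RNA in the difference was not tested.

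Gstp2 ranged from 0.201 to 38.8 CPM with a median of 6.44 CPM below, against 0.228 to 196 CPM with a median of 8.17 CPM above median survival. The classes overlapped over most of their range, and the highest mice were above. The difference was -0.74 ± 0.30 (edgeR, adjusted p = 0.31, unadjusted p = 0.014). Gstm7 ranged from 0.0893 to 22.95 CPM with a median of 2.46 CPM below, against 0.190 to 12.3 CPM with a median of 1.14 CPM above. Its classes overlapped as well, with a difference of 0.62 ± 0.30 (edgeR, adjusted p = 0.52, unadjusted p = 0.040).

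Because the classes are unevenly spread over strains, the contrast was repeated within strain, in 22 mice below and 34 mice above of the 13 strains with both classes. Gstm6 also fell out of the filter on low counts there. By edgeR 0 of 21 members tested passed, beside 0% of 16441 genes, and by DESeq2 0 members, beside 0.535% of genes; limma-voom called none. At an unadjusted p under 0.05 there were 3 members, beside 12.3% of genes. Gstz1 differed by 0.31 ± 0.11 (edgeR, adjusted p = 0.34), Gsta4 by 1.11 ± 0.45 (edgeR, adjusted p = 0.35) and Gstp2 by -0.81 ± 0.34 (edgeR, adjusted p = 0.36). The other 18 members ran from -0.59 to 0.66. Gsta4 had medians of 9.99 CPM below and 4.59 CPM above median survival over all mice, where its difference was 0.26 ± 0.39 (edgeR, adjusted p = 0.93).

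**Figure D3:**
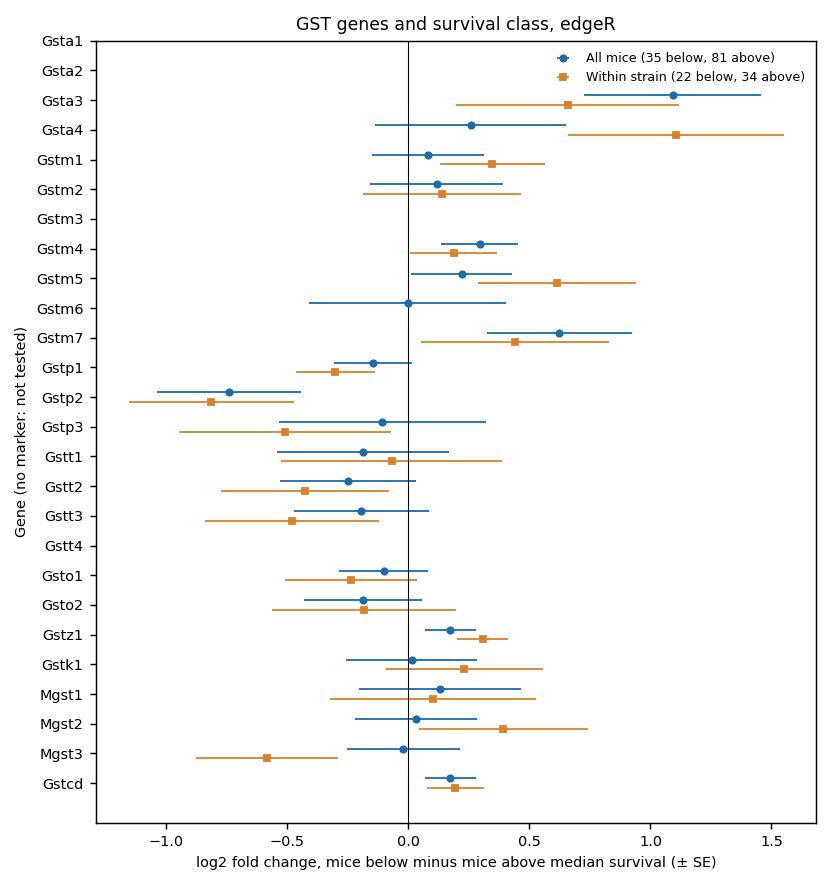
Log2 fold change of each tested member, mice below minus mice above median survival, with its SE, over all mice (circles, 35 and 81 mice) and within strain (squares, 22 and 34 mice). Gsta3 and Gsta4 lie farthest to the right and Gstp2 farthest to the left, and no member passed an adjusted p of 0.05 in either contrast by edgeR.

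Members were then set against the scores of 11 gene lists for cell types and programmes, each score being the mean centred log2 CPM of genes outside the family. Of 286 pairs of member and list over 116 mice, 40.2% passed an adjusted p of 0.05 (100000 permutations of mice, two-sided). The weakest that passed had an absolute r of 0.216, and 33.1% of pairs of any other gene with a list reached this value. The strongest was Gstcd with the cell cycle list (r = 0.75, rho = 0.71, permutation p = 1e-05, the smallest they can give). It was 0.69 without the 2 mice farthest from the median and 0.67 within strain. With the cell cycle list 16 of 26 members passed, beside 39.5% of other genes at that r. Of these 16, 2 were positive and 14 were lower where the score was higher, beside 45.6% positive among the other genes at that r. The 14 included Mgst1 (r = -0.55, rho = -0.56, permutation p = 1e-05) and Gstm4 (r = -0.48, rho = -0.56, permutation p = 1e-05).

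With the mesothelial list 14 members passed, 11 of them positive and 3 negative, beside 35.2% of other genes, of which 55.1% were positive. Mgst1 had the highest r of 0.66 (rho = 0.66, permutation p = 1e-05), with 0.67 without the 2 farthest mice and 0.60 within strain. Gstm2 followed with r = 0.54 (rho = 0.56, permutation p = 1e-05) and Gstm6 with r = 0.51 (rho = 0.61, permutation p = 1e-05). Gsto1 went the other way, with r = -0.36.

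**Figure D4:**
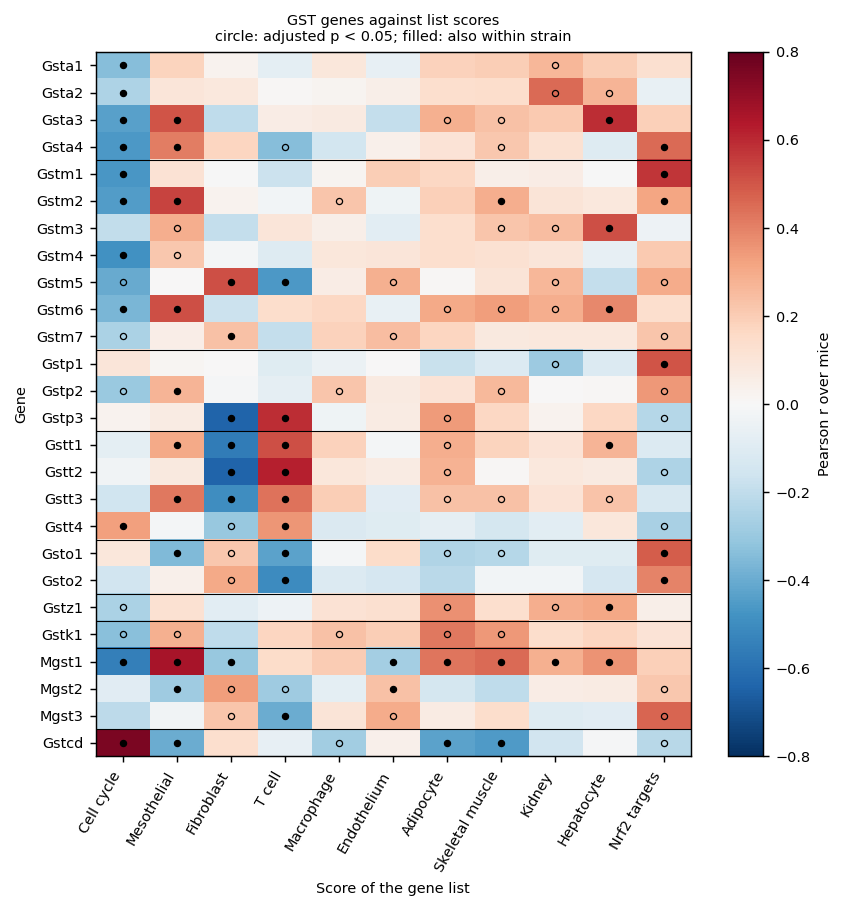
Pearson r of each member (down, by class) with each list score (across) over 116 mice; red is positive and blue negative, a circle marks an adjusted p under 0.05 and a filled circle one that also passed within strain. Gstcd is positive and Mgst1 negative with the cell cycle list, and the T cell column pools the 15 mice above a score of 2 with the others.

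The Nrf2 target list held no family member. With it 15 members passed, beside 37.9% of other genes, and 11 of them were positive, beside 45.8% of those genes. They were led by Gstm1 (r = 0.57, rho = 0.57, permutation p = 1e-05), which had 0.57 without the 2 farthest mice and 0.51 within strain. Gstp1 had r = 0.50 (0.47 within strain), Gsto1 0.48 (0.41 within strain) and Gsta4 0.45 (0.48 within strain), each with permutation p = 1e-05 over all mice. Mgst3 had r = 0.46, and 0.29 within strain, where it no longer passed (permutation test, adjusted p = 0.064). The 4 members with the motif in their promoter window had 0.30 for Gstm5, 0.22 for Gstm7, and 0.19 for each of Gsta3 and Mgst1. The last pair did not pass over all mice and did within strain. These values are lower than those just named, which were picked for a high r. Gstm5 and Gstm7 were among the 11 positive members, and members with and without the motif were not compared as groups.

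The theta genes Gstt1, Gstt2 and Gstt3 and the pi gene Gstp3 were set against T cell markers, whose score puts a group of 15 mice apart from the others. Over all mice, 46.8% of other genes reached an absolute r of 0.216 with the T cell list, beside 42.3% of members. With the fibroblast and mesenchymal list 46.8% of other genes did, beside 46.2% of members. Values below are given within each group, with p adjusted over 28 relations, and the share of other genes within a group was not examined. Among the other mice, Gstt3 had r = 0.35 (rho = 0.36, permutation test, adjusted p = 0.0017), Gstt1 0.33 (rho = 0.38, adjusted p = 0.0030), Gstp3 0.25 (rho = 0.31, adjusted p = 0.030) and Gstt2, which did not pass, 0.19 (rho = 0.26, adjusted p = 0.10) with the T cell score. Among the 15 mice r was 0.45 to 0.55 and passed for none of the 4 (permutation test, adjusted p of 0.070 to 0.13). With the fibroblast and mesenchymal list the same genes were negative in the other mice, with r of -0.45 for Gstt1 and Gstt3, -0.45 for Gstp3 and -0.41 for Gstt2 (permutation test, adjusted p of 0.00014 to 0.00063). By rank the values were weaker, with rho of -0.39 for Gstt1, -0.41 for Gstt3, -0.24 for Gstp3 and -0.29 for Gstt2. Among the 15 mice r was -0.33 to -0.46 and passed for none of the 4 (permutation test, adjusted p of 0.13 to 0.23). Gstm5 was positive with that list in both groups, with r = 0.62 in the 15 mice and 0.26 in the others (permutation test, adjusted p = 0.027 and 0.024). The omega genes were positive with it in the 15 mice only, with r = 0.72 for Gsto2 and 0.64 for Gsto1 (permutation test, adjusted p = 0.016 and 0.027). In the others they had r = -0.13 and -0.15 and did not pass (permutation test, adjusted p = 0.23 and 0.18).

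**Figure D5:**
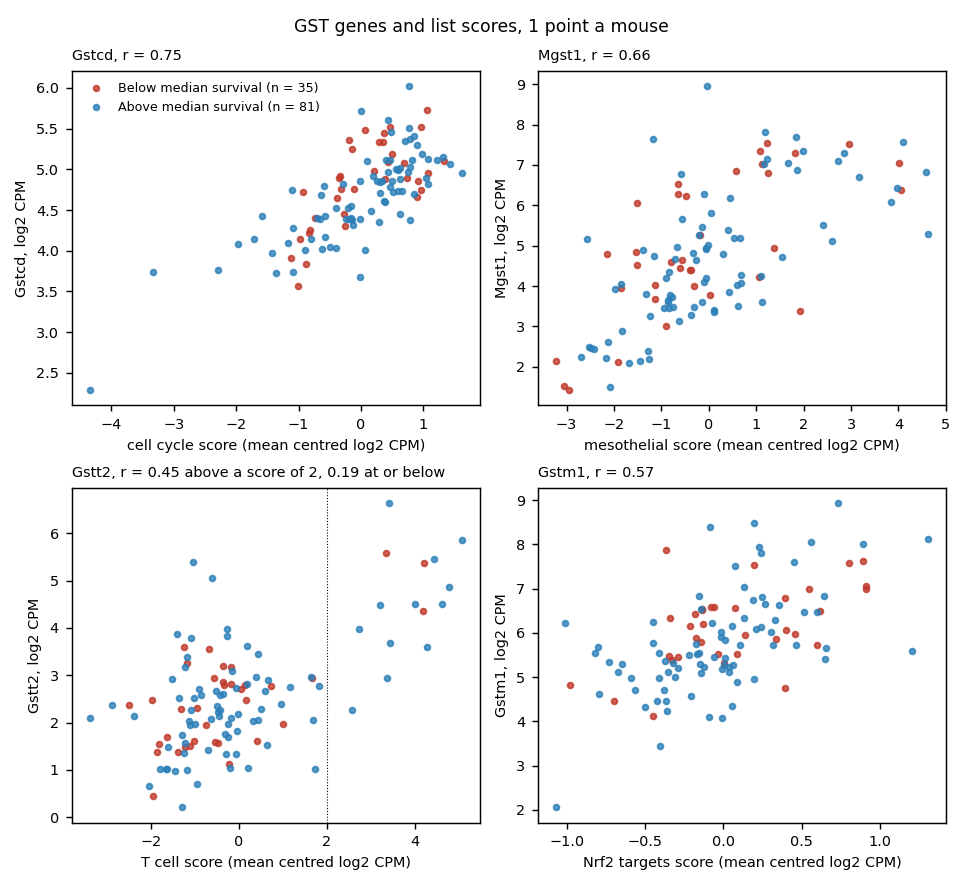
Log2 CPM of Gstcd, Mgst1, Gstt2 and Gstm1 in each mouse against the cell cycle, mesothelial, T cell and Nrf2 target scores, in mice below (red, n = 35) and above (blue, n = 81) median survival. Mice of both classes overlap in all panels, and in the T cell panel the dotted line at a score of 2 separates the 15 mice treated apart.

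Correlations among the members were higher within a class than between classes. Among all 325 pairs the median r over mice was 0.15; it was 0.39 over the 40 pairs of the same class and 0.13 over the 285 pairs of different classes. Members of a class also share sequence, and its part in these correlations was not tested. Gstt1 and Gstt3 had the highest r of 0.88 (rho = 0.88, permutation p = 1e-05), which was 0.86 within strain, followed by Gstt1 with Gstt2 at 0.79. Across classes, Gsta3 and Mgst1 had r = 0.70 (rho = 0.68, permutation p = 1e-05; 0.70 within strain), and Gstp3 and Gstt2 0.66. The most negative pair was Gstcd with Mgst1, at r = -0.55 (rho = -0.57, permutation p = 1e-05; -0.52 within strain).

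Other genes of the glutathione pathway were read from lists. Of 32 genes of glutathione synthesis, breakdown, peroxidases and export that were tested between the survival classes, 1 passed by edgeR, beside 1.71% of all genes: Ggt1, which cleaves extracellular glutathione. Ggt1 ranged from 0 to 12.4 CPM with a median of 0.488 CPM below, against 0.0341 to 154.2 CPM with a median of 0.544 CPM above median survival. The classes overlapped, and LOX-B4, the highest mouse, held 31.4% of the sum beside 235559 CPM of reproductive tract markers. The difference was -2.46 ± 0.61 (edgeR, adjusted p = 0.010); it was -2.64 without libraries over 1% of another tissue, -1.16 by DESeq2 (adjusted p = 0.044), and the call was lost at -0.66 in the model with strain (edgeR, adjusted p = 0.69) and by limma-voom (adjusted p = 1.00). Neither the 17 tested relatives of the family, such as metaxins and chloride channel proteins with a transferase fold, nor the 18 Nrf2 targets had a gene that passed. Within strain none of the 3 lists had one by edgeR.

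Between strains, 25 of 34 genes of the glutathione list passed by edgeR and 15 by limma-voom, beside the 69.4% and 52% of all genes. Of the relatives 15 of 19 passed by edgeR and 11 by limma-voom, and of the Nrf2 targets 12 of 18 by edgeR and 8 by limma-voom. None of these genes had a step. The largest share of variance between strains was 64.6% for Glo1, which removes methylglyoxal with glutathione, 56.2% for the glutaredoxin Glrx2 and 54.4% for the lipid peroxide reductase Gpx4. Among the relatives it was 69.5% for the valyl-tRNA synthetase Vars, 55.97% for Mtx1 and 53.7% for Mtx3. Among Nrf2 targets it was 64.3% for the transaldolase Taldo1, 53.01% for Pgd of the pentose phosphate pathway and 51.3% for Pir. The highest strain of Taldo1, Pgd, Pir, Gpx4 and Mtx1 was CC040, the strain in which Gsto1 was highest and Gstp1 second. CC040 was also the lowest strain of Glrx2, as it was of Mgst1, Gsta3 and Gstt3. The Nrf2 target score of its 4 mice was 0.11 in D3, -0.14 in E1, 1.30 in E4 and 0.91 in H1.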

How the data were processed

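Whole tumours were sequenced from strand-specific mRNA libraries, per the labels' protocols. The authors deposited an estimated count per gene and tumour, as whole numbers with no normalization. The submitters' processing notes name kallisto 0.46.1, the build GRCm38, DESeq2 and DESeq; the sources used here give neither their settings nor the release of the annotation. A symbol was found for 35825 of 36118 gene IDs, and gene positions, transcripts and exon lengths came from GENCODE M21 on GRCm38.

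Per mouse, the counts of its tumours were added up and scaled by TMM. Log2 CPM had a prior count of 2. The main tests were edgeR 4.0.16 (glmQLFit and glmQLFTest, filterByExpr, R 4.3.3), with Benjamini-Hochberg adjustment over all genes and a threshold of 0.05, two-sided. Alternatives were limma 3.58.1 (voom), DESeq2 1.42.0, DESeq2 size factors, no filter, other sets of libraries, 1 tumour per mouse, and leaving out the nth mouse of every strain. The strain test used strains with at least 3 mice. Scripts were tested on simulated data. Permutation tests used Python 3.11.15, numpy 2.4.6, pandas 2.3.3 and scipy 1.17.1, and figures matplotlib 3.10.9.

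The members and lists were chosen with earlier results of these data known. All 26 members are accounted for. Values per mouse are given for members with a step, of which there were 0, for members past a survival contrast, also 0, and for the highest member of each class; other members are named where they had a large gap between strains, a low unadjusted p or a strong correlation, chosen after their values were seen. Of the lists, genes past a survival contrast and the 3 of largest variance between strains are named. The 5 libraries set apart were nearer to another strain by over 0.1 in r. Nothing in the labels says that mice of a strain came from separate litters, so p-values measure the spread between these mice. A floor of 3 counts covers counting error only.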

Additional observations from a re-analysis of the deposited data

Results flagged for a closer look

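The 3 mice left out for liver RNA were not part of the comparisons, and 11 members stood above the highest of the other 116 mice in at least 1 of them. The share of all genes that did so was not examined, so this count cannot be read as a trait of the family. Levels here were scaled together with these 3 mice. Gsta3 had 608 CPM in LAX-E2, 1501 CPM in TAS-I1 and 183 CPM in TOFU-C3, against a highest value of 72.5 CPM. Gstz1 had 728, 1014 and 108.3 CPM in these mice, against at most 76.5 CPM. Mgst1 reached 1003 CPM in LAX-E2 and 2433 CPM in TAS-I1, against at most 485 CPM. Gstm1 reached 1047 and 1291 CPM in the same pair of mice, Gstt1 353 and 305 CPM, and Gstk1 45.5 and 176 CPM. The minor mu genes did so too, with Gstm4 at 100.7 and 75.3 CPM, Gstm6 at 84.8 and 77.2 CPM, and Gstm7 at 116.04 and 153.8 CPM. Gstp3 had 159.2 CPM in LAX-E2, and Gstt3 122 CPM in TAS-I1. Gstp1, Gsto1, Gstm2 and the other members were within the range of the 116 mice. Among 25 strain groups of 4 to 10 mice examined at the ends of the strain order, 0 had a mouse far from the others by Dixon's criterion; chance gives about 1 in 20.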

How the results depend on the processing

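The count of members that differed between strains was 23 by edgeR and depended on the test. It was 13 by limma-voom, beside 52% of genes, and 6 of 25 within the 8 strains with Umod in every mouse, beside 10.9% of genes. It was 15 to 22 when the nth mouse of every strain was left out, with 15 without replicate 2, beside 57.8% of genes. Fewer mice enter the last pair of settings, and the cause of the limma-voom difference was not tested. In the survival contrast, 1 member passed with the liver libraries kept, Gsta3 at 1.86 (edgeR, adjusted p = 0.042), and 0 in all other settings run. The other 40 counts and summaries stayed within 1.5 times of their value, and strain steps were 0 under each of their alternatives. Over the single values named, 560 alternatives kept the side of the threshold, 62 lost it and 7 gained it. Among the members tested between the survival classes, 9 of 22 changed sign in at least 1 of 9 settings, among them Gstt1, Gstp3 and Mgst1. Within strain 3 of 21 did so in at least 1 of 8 settings, namely Gstm2, Gstt1 and Mgst1. In the main fits the log2 fold changes of all members that changed sign were within 0.25 of 0. Of the values of other sign, 0 passed. No paired analysis was possible because the replicate numbers only follow the order of names and tie no mice together across groups. Low levels limit Gsta1, Gsta2, Gstm3, Gstt4 and, to a lesser degree, Gstm6, and shared sequence limits Gstp1 and Gstp2.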
